A study of Mus musculus with 8 samples.

Results

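The 8 mouse genes described here have a CpG island with less enrichment of methylated DNA on every embryonic stem (ES) cell array than on every liver and spleen array. The genes are Stx1a, Ehbp1l1, Agap2, Nfix, Aff3, Msl3l2, A930004D18Rik and BC057022. They were chosen on the measured values themselves, for low values on all 4 ES arrays and higher values in liver and spleen, so the difference between ES cells and tissues is their definition and is given as a description without a test. The 8 genes hold 22 regions, of which 19 have 3 or more usable probes, out of 13183 such regions with 10970 gene names on the array. The 8 arrays are 8 groups of 1 sample: ES cells that were wild type, aid-/-, mbd4-/- or carried a Gadd45a knock down, and 2 tissues, liver and spleen, from aid-/- or mbd4-/- mice of strain C57BL6/J at 6 months of age. Aid is a cytidine deaminase of B cells, Mbd4 a glycosylase that binds methylated CpG and removes mismatched thymine, and Gadd45a a stress response gene. All 4 tissue samples are mutant, and neither wild-type liver nor wild-type spleen was analysed here. The labels do not say how many animals gave a tissue sample or how many clones an ES sample.

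Cytosine methylation in mammals sits mostly on CpG dinucleotides. It covers most of the genome, while CpG islands at gene starts usually stay free of it. Islands inside genes or between genes take on methylation more often during differentiation, and those marks differ between cell types. In methylated DNA immunoprecipitation, the assay used here, an antibody against 5-methylcytidine pulls down sheared, denatured DNA, and the bound DNA (Cy5) is hybridised together with untreated input DNA (Cy3) to an array of CpG island probes. The value of a probe here is log2 of bound over input minus the median of its array. Probes whose starts lie up to 500 bp apart form a region, called an island in the text, and its value is the mean of its probes. A value of 0 is therefore the middle of the array, not the absence of methylation, and no value is a methylation percentage. Where 4 ES values follow each other the order is aid-/- first, then wild type, then mbd4-/-, with the Gadd45a knockdown last. Where 2 values of a tissue do, aid-/- stands before mbd4-/-. A difference between bulk samples cannot tell more methylated cells from more methylation per cell.

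The leading island of a gene is the one with the largest mean of the 4 tissue arrays minus mean of the 4 ES arrays. The probe nearest to the centre of each leading island is printed below from the array design, with its position in build mm9 and each CpG in capitals, because these are the letters to which the fragments bound. The number of CpG in the probe itself varied widely among them.
Stx1a, chr5:135517901-135517945: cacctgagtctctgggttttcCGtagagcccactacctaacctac
Ehbp1l1, chr19:5716396-5716442: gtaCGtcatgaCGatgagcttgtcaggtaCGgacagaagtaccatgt
Agap2, chr10:126517231-126517275: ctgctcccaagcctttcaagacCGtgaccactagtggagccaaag
Nfix, chr8:87308434-87308479: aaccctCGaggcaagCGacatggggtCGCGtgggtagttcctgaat
Aff3, chr1:38683722-38683766: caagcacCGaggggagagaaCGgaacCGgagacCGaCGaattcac
Msl3l2, chr10:55835338-55835382: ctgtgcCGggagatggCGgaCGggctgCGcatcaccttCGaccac
A930004D18Rik, chr2:17961396-17961440: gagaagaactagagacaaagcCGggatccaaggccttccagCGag
BC057022, chr5:115021632-115021676: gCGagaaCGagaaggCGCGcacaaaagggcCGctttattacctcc
The 8 printed probes hold 1 CpG each in Stx1a and Agap2 and 5 each in Msl3l2, BC057022 and Aff3. The 39 usable probes of the 8 leading islands had a median of 2 CpG and a median GC content of 55.6%. The 62 usable probes of the other islands of the same genes had the same medians, 2 CpG and 55.6% GC. Over all 77258 probes of the series' islands the medians were 2 CpG and 57.8% GC.

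On the ES arrays the leading islands ranked between percentiles 0.485 and 74.8 of all islands of the array. On the tissue arrays they ranked between percentiles 87.1 and 99.0, except Aff3 in liver (78.9 and 33.3). Their median was −0.82 on the aid-/- ES array, −0.57 on the wild-type ES array, −1.07 on the mbd4-/- ES array and −1.12 on the Gadd45a knockdown array. It was 1.61 in aid-/- liver, 2.35 in mbd4-/- liver, 1.81 in aid-/- spleen and 2.71 in mbd4-/- spleen. In all 8 genes the lowest tissue array was above the highest ES array. That order held for 1024 of all 13183 islands (7.77%), and since it was part of the choice nothing is read from the members' count.

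**Figure D1:**
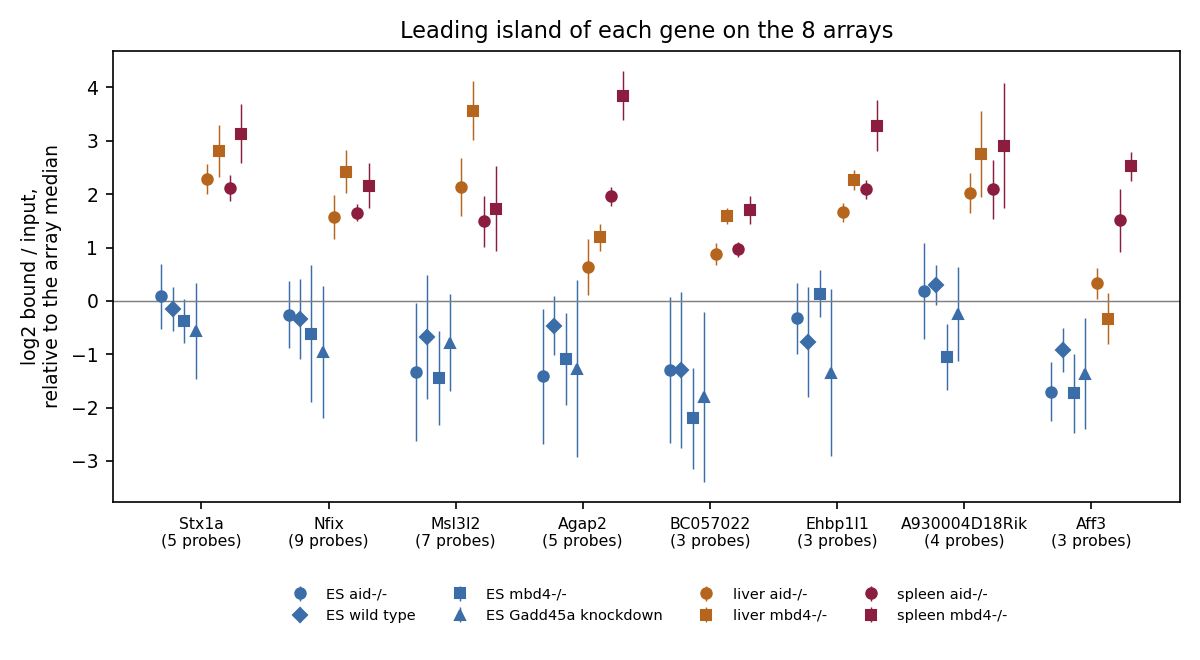
Value of the leading island of each gene on the 8 arrays: the vertical axis is log2 of bound over input relative to the array median, points are means over the island's probes and bars their SD. Blue ES points lie at or below 0.30 and within each gene the liver and spleen points lie above them, with the 2 liver points of Aff3 closest to 0.

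The arrays differ in range, which matters for how a value is read. The plateau, here the 98th percentile of autosomal islands on an array, was 4.46 on the aid-/- ES array, 3.35 on the wild-type, 4.26 on the mbd4-/- and 2.74 on the Gadd45a knockdown array. It was 2.25 and 3.99 in liver, and 2.28 and 3.64 in spleen. Bound signal was well above background for 70.6% of probes on the aid-/- ES array and for 85.2% to 96.2% on the others. The markers of the labelled cells gave an indirect check only. Of 16 islands of ES marker genes, 3 were higher on every tissue array than on every ES array and 0 the other way. Over all islands the shares were 7.77% and 4.01%. The 3 ES marker islands passed by gaps of 0.02, 0.03 and 0.26. Of 10 islands of blood cell genes, 6 of fibroblast and endothelium genes and 1 of a hepatocyte gene, 0 were ordered either way.

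The first 2 genes act in membrane traffic. Stx1a encodes syntaxin 1A, a SNARE protein of the presynaptic membrane that drives vesicle fusion. Its leading island (chromosome 5, 135517742 to 135518174, 5 probes) read 0.09 in aid-/-, −0.15 in wild-type, −0.38 in mbd4-/- and −0.56 in Gadd45a knockdown ES cells. It read 2.28 and 2.80 in liver and 2.12 and 3.14 in spleen. All 4 tissue arrays lay at least 2.03 above the highest ES array. Ranked against all islands of the same array, Stx1a stood at percentiles 23.5 to 62.4 on the ES arrays and at 93.2 to 98.2 on the tissue arrays.

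Ehbp1l1 encodes a relative of the EH domain binding protein 1 that works with Rab GTPases in endosomal transport. The leading island of Ehbp1l1 (chromosome 19, 5716213 to 5716534, 3 probes) read −0.33, −0.77, 0.14 and −1.35 on the 4 ES arrays. The tissue values were 1.66 and 2.27 in liver and 2.09 and 3.29 in spleen. The Gadd45a knockdown was the lowest of the 4 ES arrays. The SD was 0.63 over the 4 ES arrays and 0.69 over the 4 tissue arrays. In both genotypes spleen was above liver.

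Agap2, also called Centg1 or PIKE, encodes a GTPase with an Arf GAP domain that acts on phosphoinositide 3-kinase signalling. The Agap2 island (chromosome 10, 126516710 to 126517512, 5 probes) read −1.41, −0.47, −1.08 and −1.27 on the 4 ES arrays. It read 0.63 and 1.19 in liver, and 1.96 and 3.84 in spleen. Spleen exceeded liver in both genotypes, and the mbd4-/- spleen value was above the plateau of its array, at 106% of it. On the ES arrays as few as 1 of the 5 probes had bound signal well above background.

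The next 3 genes encode nuclear proteins. Nfix is a member of the nuclear factor I family of transcription factors. Its leading island (chromosome 8, 87308048 to 87308979, 9 probes) read −0.26, −0.34, −0.61 and −0.96 on the 4 ES arrays. It read 1.57 and 2.42 in liver and 1.66 and 2.16 in spleen. Liver and spleen were nearly level within each genotype, and all 4 tissue arrays stood at percentiles 90.6 to 93 of their array.

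Aff3, or LAF4, is a nuclear protein of the AF4/FMR2 family first known from lymphoid cells. The Aff3 island (chromosome 1, 38683615 to 38683986, 3 probes) read −1.70, −0.92, −1.73 and −1.37 on the 4 ES arrays. In liver it read 0.33 in aid-/- and −0.33 in mbd4-/-, and in spleen 1.51 and 2.52. Aff3 thus had the smallest gap of the 8 genes, 0.59. Its liver values lay above the array median in aid-/- (percentile 78.9) and below it in mbd4-/- (percentile 33.3). The 2 spleen arrays were at percentiles 91.8 and 92.1.

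Msl3l2 is named for its likeness to Msl3, a chromodomain subunit of the MSL histone acetyltransferase complex. The Msl3l2 island (chromosome 10, 55834862 to 55835826, 7 probes) is its single island on the array. It read −1.34, −0.67, −1.45 and −0.78 on the 4 ES arrays. It read 2.14 and 3.57 in liver and 1.49 and 1.72 in spleen. Here liver was above spleen in both genotypes, the opposite order to Agap2 and Aff3. The mean difference of tissues minus ES, 3.29, was the largest of the 8 genes. On the aid-/- ES array only 2 of the 7 probes had bound signal well above background.

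The other 2 genes have less known products. A930004D18Rik is a long non-coding RNA gene in RefSeq. Its leading island (chromosome 2, 17961227 to 17961765, 4 probes) read 0.19, 0.30, −1.06 and −0.25 on the 4 ES arrays. It read 2.02 and 2.76 in liver and 2.09 and 2.91 in spleen. On the wild-type ES array it was at percentile 74.8, the highest ES rank of any of the 8 genes, and on the mbd4-/- ES array at percentile 13.0. On that mbd4-/- array 2 of the 4 probes had bound signal well above background.

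BC057022 is the array's name for a gene whose first island matches the promoter of Fam222a in RefSeq. Its leading island (chromosome 5, 115021554 to 115021774, 3 probes) read −1.30, −1.30, −2.20 and −1.80 on the 4 ES arrays. It read 0.88 and 1.59 in liver and 0.96 and 1.70 in spleen. This was the lowest of the 8 islands in ES cells relative to the array, at percentiles 0.485 to 4.85. On all 4 tissue arrays it was at percentiles 89.1 to 90.5, and its gap of 2.18 was the widest of the 8. On each ES array 2 of the 3 probes had bound signal well above background.

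In order of the mean over the 4 ES arrays (± SD over arrays of different genotype, n = 4), BC057022 (−1.65 ± 0.43) and Aff3 (−1.43 ± 0.38) were lowest. Msl3l2 (−1.06 ± 0.39) and Agap2 (−1.06 ± 0.42) followed. Ehbp1l1 (−0.58 ± 0.63), Nfix (−0.54 ± 0.32), Stx1a (−0.25 ± 0.28) and A930004D18Rik (−0.21 ± 0.61) were highest. Each neighbour in this order differed by less than the larger SD of the pair. Over the 4 tissue arrays the order ran from Aff3 (1.01 ± 1.27) and BC057022 (1.28 ± 0.42) through Agap2 (1.91 ± 1.40), Nfix (1.95 ± 0.41), Msl3l2 (2.23 ± 0.93) and Ehbp1l1 (2.33 ± 0.69) to A930004D18Rik (2.44 ± 0.45) and Stx1a (2.59 ± 0.47). Again no neighbours differed beyond the larger SD. The antibody and each probe bind with their own strength, so these orders compare enrichment on the array and not methylation between genes. Input signal of the leading islands relative to the array was on average higher in ES cells than in tissues for all 8 genes. The difference was largest in Stx1a (1.09 in ES cells and 0.57 in tissues, log2) and smallest in A930004D18Rik (−0.51 and −0.61). Input is the denominator of the value used in the choice, and no share over all islands stands beside this count. Nothing is read from the count, and the part of input in the values was not tested.

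Of the other 14 islands of these genes 1, a 2-probe island of Nfix, had every tissue array above every ES array. The 7.77% over all islands counts only islands of 3 or more probes. The 11 other islands of these genes with 3 or more probes did not have that order. The starts of 3 genes could be placed on the array's own positions by matching probes letter for letter to RefSeq promoter windows, and each had an island of its own. The Stx1a start island (chromosome 5, 135499170 to 135499898, 7 probes) read between −0.41 and −0.09 on the ES arrays. On the tissue arrays it read between −0.62 and 0.09, and the mean difference of tissues minus ES was −0.0038, against 2.84 in the leading island of the same gene. That leading island lies 18390 bp downstream of the start, inside a gene that spans 27619 bp in RefSeq. Whether it is in an exon or an intron was not determined, as no mm9 gene model was used here.

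The start island of BC057022 (chromosome 5, 115017128 to 115018551, 9 probes) read 0.54, 0.39, 0.85 and 1.26 on the 4 ES arrays. In the tissues it read between 0.02 and 0.50 and overlapped the ES arrays, where the leading island 3294 bp downstream was 2.94 higher in tissues than in ES cells. The third island of the gene, 42497 bp downstream of the start (chromosome 5, 115060757 to 115061303, 4 probes), was high everywhere, from 2.22 in the Gadd45a knockdown to 4.21 in aid-/- ES cells and from 2.26 to 4.30 in the tissues. The gene thus held an island near the middle of the array, one high in tissues and one high in all samples. Fam222a spans 44970 bp in RefSeq.

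The Ehbp1l1 start island (chromosome 19, 5726012 to 5726510, 4 probes) separated the tissues from each other. It read 1.01 and 1.85 in liver, and −0.44 and −0.73 in spleen. On the 4 ES arrays it read 1.10, 0.44, 0.65 and −1.46. Liver was above spleen here, whereas in the leading island, 9745 bp downstream, spleen was above liver. The central probe of each of the 3 start islands is printed for comparison with the leading islands, with CpG in capitals.
Stx1a start island, chr5:135499558-135499602: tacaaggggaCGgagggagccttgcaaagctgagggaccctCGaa
BC057022 start island, chr5:115017800-115017844: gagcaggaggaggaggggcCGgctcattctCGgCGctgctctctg
Ehbp1l1 start island, chr19:5726239-5726283: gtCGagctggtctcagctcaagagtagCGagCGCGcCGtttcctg
Their differences of tissues minus ES were −0.44, −1.89 and 0.48 in this order. The −1.89 rests on the Gadd45a knockdown array, which read 5.12 at this probe while the other ES arrays read −0.01, −0.10 and 1.28. The RefSeq promoter window of Stx1a is shown because its island read between −0.62 and 0.09 on all 8 arrays. The window runs from 250 bases before to 50 after the start on the plus strand (GRCm38.p6, chr5:135023232-135023531). It holds 19 CpG, in capitals, against a median of 7 over all 32851 windows.
Stx1a promoter: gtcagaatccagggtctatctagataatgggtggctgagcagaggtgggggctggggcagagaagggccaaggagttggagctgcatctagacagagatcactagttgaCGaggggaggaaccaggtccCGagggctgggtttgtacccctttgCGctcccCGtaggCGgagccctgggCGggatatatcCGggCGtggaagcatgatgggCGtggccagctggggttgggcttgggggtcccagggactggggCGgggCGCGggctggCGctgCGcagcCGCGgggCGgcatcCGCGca
No probe matched a promoter window of Nfix, Aff3, Msl3l2, Agap2 or A930004D18Rik, so the distance of their islands from a start is not given.

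In Agap2 all 3 islands had the same order of tissues. The island with 2 probes (chromosome 10, 126518674 to 126518842) read 0.54 and 1.20 in liver and 1.57 and 3.44 in spleen. The last island (chromosome 10, 126528077 to 126529136, 9 probes) read 0.79 and 1.30 in liver and 1.89 and 3.87 in spleen. In ES cells these 2 islands were higher than the leading one: the 9-probe island read 0.55, 0.40, 1.15 and −0.34 on the 4 ES arrays. Liver overlapped the ES arrays in both of them.

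Nfix has 6 islands. A 2-probe island (chromosome 8, 87295957 to 87296200) had the leading island's pattern, with −0.31 to 0.42 on the ES arrays and 1.76 to 2.87 on the tissue arrays. A further pair (starts at 87230641 and 87239905) were above 0.60 on every array, and their ES and tissue arrays overlapped. The last 2, near 87323016 and 87324505, had tissue values between −0.17 and 0.81 and overlapped as well. Aff3 has one island high in most samples (chromosome 1, 38266961 to 38267259), with 3.43, 1.87, 3.08 and 0.57 on the 4 ES arrays and 1.53 to 3.19 in the tissues. Its last island (start at 38684618) read −0.22 to 0.60 in ES cells and 0.17 to 0.75 in tissues. The second island of A930004D18Rik (chromosome 2, 17953346 to 17953852, 5 probes) read 0.11 to 0.80 in ES cells and 0.47 to 1.05 in tissues, and overlapped.

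**Figure D2:**
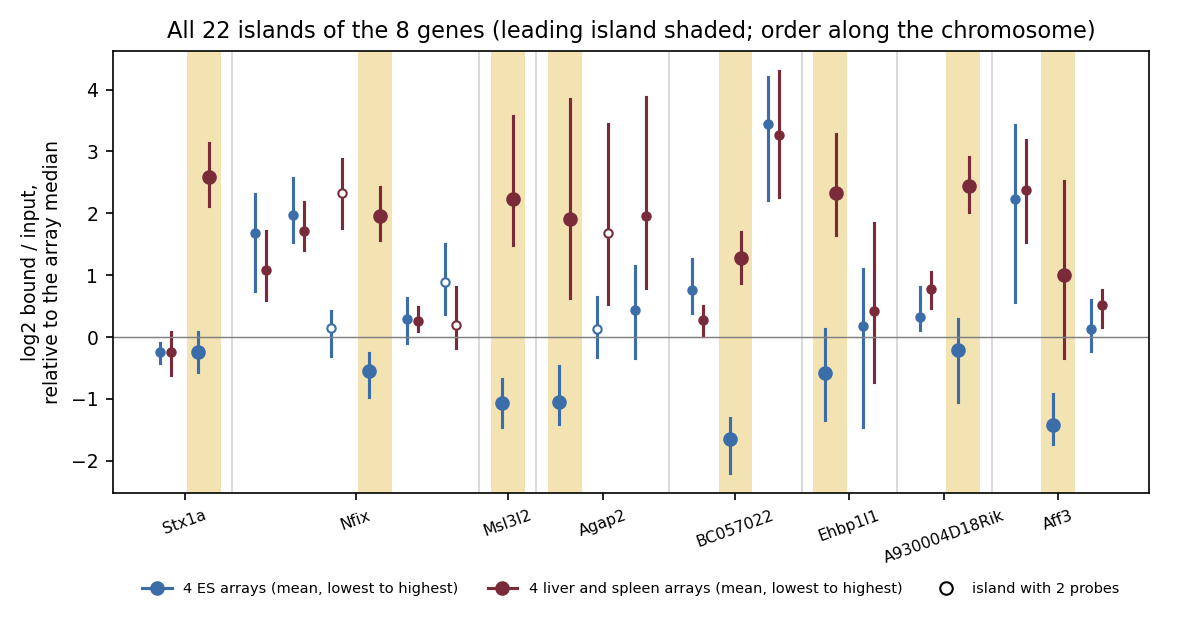
All 22 islands of the 8 genes in chromosome order, with log2 of bound over input relative to the array median on the vertical axis. Points are means over 4 ES arrays (blue) and 4 tissue arrays (dark red), and lines run from the lowest to the highest array. Open points are islands of 2 probes, and the leading island is shaded. The start island of Stx1a, its first, has means of −0.241 in ES cells and −0.245 in tissues.

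The difference within the leading islands is also described probe by probe. All 39 probes had a higher mean in tissues than in ES cells, and 37 had every tissue array above every ES array. These probes lie on shared fragments and are not replicates, and their values were used in the choice. No share over all probes stands beside the 2 counts, so nothing is read from them. One exception was a Nfix probe 185.5 bp from the island centre, singled out here after its values were seen. It read 0.92, 0.97, 1.22 and 1.47 on the 4 ES arrays and 0.90 to 1.69 in tissues. The central Nfix probe also holds 4 CpG and differed by 4.17, where this one differed by 0.16.
Nfix, probe without the difference, chr8:87308677-87308721: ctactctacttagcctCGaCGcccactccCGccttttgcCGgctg
The other exception was the outermost Msl3l2 probe, at −459 bp from the centre, with 0.29 in aid-/- ES cells and 0.03 in mbd4-/- spleen. Probes with no CpG of their own reported the difference too: the 4 of them differed by 1.27 to 3.58, and the 35 with CpG by 0.16 to 4.36. The SD between probes of an island had a median of 0.89 on ES arrays and 0.41 on tissue arrays. In BC057022 and Ehbp1l1 the first probe was the highest on every ES array, at 0.17, 0.38, −1.49 and −0.05 in BC057022, with the other 2 probes of that island at or below −1.56.

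**Figure D3:**
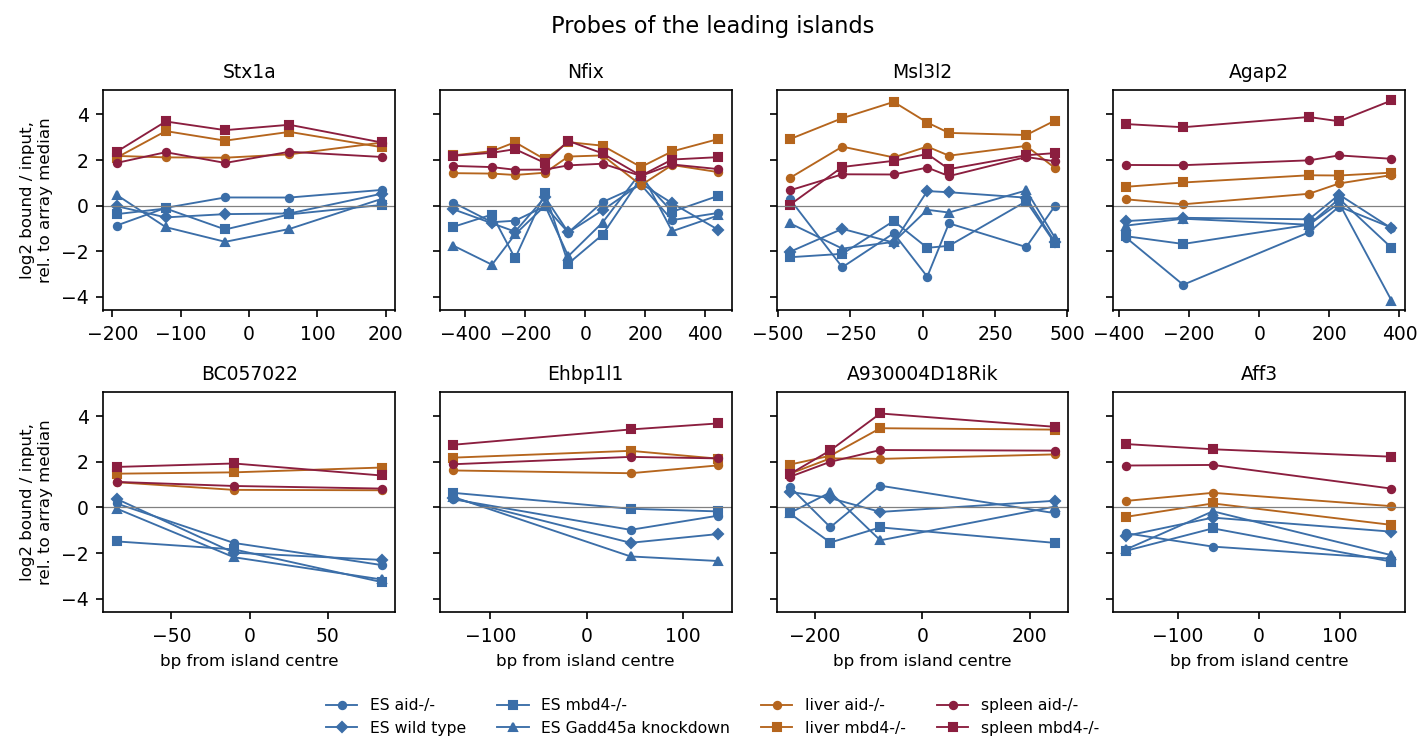
Value of every probe of the 8 leading islands against its distance from the island centre in bp; each line is 1 array, blue for ES cells, brown for liver and dark red for spleen. Tissue lines run above ES lines throughout except at the Nfix probe 185.5 bp from the centre and the outermost Msl3l2 probe.

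Whether liver and spleen differ in these islands was not used in the choice. Agap2 and Aff3 were higher in spleen and Msl3l2 higher in liver in both genotypes, while Nfix, Stx1a, BC057022 and A930004D18Rik differed by at most 0.33 in either. The fit was limma over all 8 arrays with a mean for each tissue, where the aid-/- and mbd4-/- samples stand in as replicates. The ES arrays, each of another genotype, stand in as replicates too, so their spread is part of the SE and intervals below. The fit called 0 of 13183 islands (0%) at a Benjamini-Hochberg adjusted p under 0.05, with 204 at an unadjusted p under 0.05. None of the members passed. The estimate for Aff3 was −2.02 ± 0.43 (SE; liver minus spleen, 95% interval −3.00 to −1.03, adjusted p = 1). For Agap2 it was −1.99 ± 0.58 (−3.32 to −0.67, adjusted p = 1), and for Msl3l2 1.24 ± 0.47 (0.16 to 2.33, adjusted p = 1). These 3 intervals lie on one side of 0, but with so many islands tested none is called. Agap2 was −1.05 without the mbd4-/- spleen array, and Msl3l2 was 0.53 without the mbd4-/- liver array and 1.96 without the aid-/- liver array. A fit on the liver and spleen arrays alone, with genotype as a block, left the 3 estimates unchanged. Its SE was 0.34 for Aff3, 0.30 for Agap2 and 0.28 for Msl3l2, and it called 0 islands.

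The within-genotype values also stand for the scan days, since both aid-/- tissues were scanned on day 1 and both mbd4-/- tissues on day 2. Aff3 differed by −1.18 in the aid-/- pair and −2.85 in the mbd4-/- pair. Agap2 differed by −1.33 and −2.66, and Msl3l2 by 0.65 and 1.84. The mbd4-/- pair always showed the larger log2 difference in these 3 genes, and its arrays have the higher plateaus. As a share of the plateau the 2 pairs were closer: −51.7 and −77.7 percentage points in Aff3, −57.9 and −75.9 in Agap2 and 29.4 and 42.1 in Msl3l2.

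**Figure D4:**
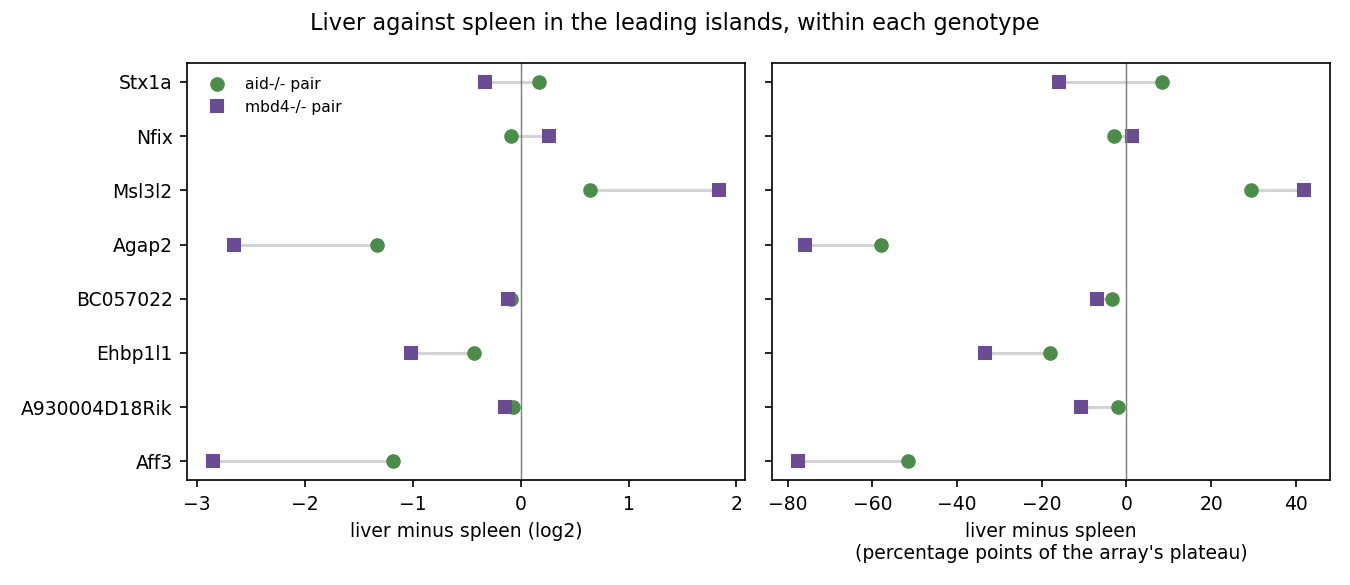
Liver minus spleen in the leading islands within the aid-/- pair (green circles) and the mbd4-/- pair (purple squares), in log2 units on the left and in percentage points of each array's plateau on the right. Agap2 and Aff3 lie left of 0 and Msl3l2 right of 0 in both pairs and on both scales.

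An alternative added after seeing the data used only the 4 tissue arrays, set to one plateau, with genotype as a block. It called 181 of 13183 islands. Among them were Agap2 (−2.25, adjusted p = 0.0038), Aff3 (−2.18, adjusted p = 0.0039) and Msl3l2 (1.20, adjusted p = 0.036). The adjusted p over all alternatives ran up to 1 in each of the 3, and without the plateau step it was 0.058, 0.065 and 0.12 in this fit. Ehbp1l1 had an estimate of −0.72 ± 0.54 (adjusted p = 1) and differed by −0.43 and −1.02 in the aid-/- and mbd4-/- pairs. Its start island had the opposite sign at 2.02 ± 0.74 (0.33 to 3.70, adjusted p = 1). The 9-probe Agap2 island had −1.83 ± 0.66 (adjusted p = 1), close to the leading one. The remaining members were near level: Nfix 0.09 ± 0.38, Stx1a −0.08 ± 0.39, BC057022 −0.10 ± 0.42 and A930004D18Rik −0.11 ± 0.50 (SE). Their intervals reached from −1.26 to 1.04, so a difference of that size in either direction is within the error.

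Whether the 2 mutant genotypes differ was asked with limma on the 6 aid-/- and mbd4-/- arrays, with tissue as a block. It called 0 of 13183 islands (0%), with 1415 at an unadjusted p under 0.05. Among the leading islands Agap2 had the largest estimate of mbd4-/- minus aid-/-, 0.92 ± 0.33 (SE, 95% interval 0.09 to 1.76, adjusted p = 0.46). It was 0.31 with all arrays at one plateau and 0.44 without either spleen array. Ehbp1l1 had 0.76 ± 0.21 (0.24 to 1.27, adjusted p = 0.46). The other 6 lay between 0.10 and 0.52, with adjusted p from 0.52 to 0.93. No member passed.

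In liver and spleen the mbd4-/- value was higher in 15 of the 16 pairs of leading islands, the exception being Aff3 in liver (−0.66). No share over all islands stands beside this count, and the members were chosen for high tissue values, so nothing is read from it. The limma fit on the 4 tissue arrays alone called 1072 of 13183 islands, 992 of them higher in mbd4-/-. Agap2 (1.22, adjusted p = 0.031), Ehbp1l1 (0.90, adjusted p = 0.036) and A930004D18Rik (0.78, adjusted p = 0.049) were among those called. The plateau is also higher in both mbd4-/- tissues, and the bound signal was well above background for 96.2% and 95.0% of probes there against 89.6% and 87.8% in the aid-/- tissues. With arrays at one plateau these tissue-only estimates turned negative in 6 of the 8 genes and 0 islands were called. Ranks within the array moved either way between the genotypes. In liver Stx1a stood at percentiles 98.2 and 93.2 and Aff3 at 78.9 and 33.3, while Agap2 stood at 87.1 and 89.3 in liver and at 94.7 and 99.0 in spleen. Scan day and genotype cannot be told apart in the tissues.

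In ES cells each mutant was 1 array against 1 wild-type array, with no replicate and no test. An island was listed as changed where it differed by at least 1 log2 unit and at least 75% of its probes differed that way. In aid-/- ES cells 8.7% of all islands were higher and 2.21% lower, and 0 of the 8 leading islands were listed. The largest difference was in Agap2, −1.41 against −0.47, with 1 of 5 probes higher. In mbd4-/- ES cells 7.64% were higher and 2.59% lower, and 1 leading island was listed, A930004D18Rik. It read −1.06 against 0.30 in wild type, lower by 1.36, in all 4 probes.

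In the Gadd45a knockdown 6.46% of islands were higher and 6.46% lower, and 0 leading islands were listed. The leading islands were nominally lower than wild type there, by 0.11 in Msl3l2 to 0.80 in Agap2, but the choice had used the values of both arrays and nothing is read from the direction. The members' count of listed changes was near the background in the 3 comparisons, and low values on all 4 ES arrays were part of the choice. Of the 11 other islands with 3 or more probes, 2 were listed as higher in aid-/- ES cells: the far island of Aff3 (3.43 against 1.87) and the first Nfix island (2.06 against 0.74). In mbd4-/- ES cells the far Aff3 island (3.08) and the second Nfix island (2.58 against 1.54) were higher. In the Gadd45a knockdown the first Nfix island was higher (2.32), while the far Aff3 island (0.57), the third BC057022 island (2.22 against 3.40) and the Ehbp1l1 start island (−1.46 against 0.44) were lower. The 3 comparisons share the wild-type array.

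Relatives of the members were described from a list of 25 genes in the same families. Of these, 19 have islands on the array, 25 islands in all, and 3 of the 25 had every tissue array above every ES array, against 7.77% of all islands. The median difference of tissues minus ES was 0.07 in this list and 0.08 over all islands. Of the 3, 2 belong to Agap3, a close relative of Agap2. One (chromosome 5, 23980086 to 23981092, 8 probes) read −0.08 to 0.45 in ES cells, 1.98 and 3.27 in liver and 1.37 and 1.10 in spleen. The other (start at 23990926) read −0.49 to 1.04 in ES cells and 1.33 to 2.56 in tissues. The third was Stx18, a syntaxin of the endoplasmic reticulum, with a gap of only 0.04 and tissue values from −1.43 to −0.61. None of the 6 islands of Nfia, Nfib and Nfic, the relatives of Nfix, and neither island of the Aff3 relatives had that order. The list had 0 calls in either limma comparison.

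The gene-named islands most like the members were found by the root mean square difference over the 8 arrays from the mean profile of the 8 leading islands. That profile ran from −1.05 to −0.54 on ES arrays and was 1.44 and 2.03 in liver and 1.73 and 2.66 in spleen. The 8 leading islands themselves lay 0.34 to 1.03 from it. The closest other island was in Hoxb3, a homeobox gene (chromosome 11, 96193941 to 96194547, 3 probes, 0.49 from the profile). It read −1.26, −0.49, −1.55 and −0.18 on the 4 ES arrays, and 1.00, 1.39, 1.52 and 2.67 in liver and spleen. Next were Tradd, an adaptor of the tumour necrosis factor receptor (0.58), Fmnl1, a formin of leukocytes (0.62), Arhgap9 (0.64), Hoxa3 (0.66) and Fbxl8, an F-box protein gene (0.66). A second Hoxb3 island (0.72), Rai1 (0.73), the mitochondrial DNA polymerase gene Polg (0.74) and the kinase gene Mast1 (0.74) completed the 10. All 10 had every tissue array above every ES array. In 9 of them, all but Rai1, spleen read above liver in both genotypes, for example in Hoxa3 (0.91 and 1.14 in liver, 2.02 and 4.09 in spleen). In aid-/- tissues Tradd was nearly level, at 1.56 in liver and 1.58 in spleen. The profile has both of these orders itself, so nothing is read from them. Likeness here is over 8 arrays and was measured against a profile that the choice of members set.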

How the data were processed

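Per the file headers, the authors' scanner files hold intensity values of 8 two-colour Agilent CpG island arrays from Feature Extraction 10.7.3.1 (ES mbd4-/- and Gadd45a knockdown) or 10.9.1.1, with processed signals already background-subtracted and dye-normalised. The deposited log10 ratio of Cy5 over Cy3 only checked the direction. The deposited value table, a score of unstated scale and log base, was multiplied by 1.28 and used as an alternative. Dyes ran the same way on all arrays, so dye bias cannot be told apart from enrichment.

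Of 88737 probes, 81105 were used (101 of the members' 108). The rest had no position, an outlier flag or, as all 7 lost members' probes, a weak input signal. Gene names and mm9 positions are those of the newer array design. Log2 ratios were centred on each array's median, with no loess or quantile step. Tests used limma 3.58.1 in R 4.3.3 and were tested on simulated data. Each group is 1 sample, and the number of arrays limits the precision. The 8 genes, the gene lists and the rules were chosen with earlier results of these data known. Named genes are the members, relatives with a call or a gap above 0, and the 10 islands nearest in profile. Probes were matched to RefSeq promoters (GRCm38.p6), where 7 of the 8 names are current symbols. The alternatives are in the closing section.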

Additional observations from a re-analysis of the deposited data

Results flagged for a closer look

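Differences between groups were flagged by sign alone, whatever their size, where every array pair of one group moved one way and every pair of the other group the opposite way. None of these differences between groups was tested, and each pair is 1 array against 1 array. For 5 of the 8 genes the tissues moved up from aid-/- to mbd4-/- while ES cells moved down. No share over all islands stands beside this count, and the members were chosen for high tissue values, so nothing is read from it. For mbd4-/- minus aid-/-, Stx1a was −0.47 in ES cells, 0.52 in liver and 1.02 in spleen. Nfix was −0.35 in ES cells, 0.85 in liver and 0.50 in spleen. Msl3l2 was −0.11 in ES cells, 1.43 in liver and 0.23 in spleen. BC057022 was −0.90 in ES cells, 0.71 in liver and 0.74 in spleen. A930004D18Rik was −1.24 in ES cells, 0.74 in liver and 0.82 in spleen. The plateau of the mbd4-/- array was 3.99 against 2.25 in liver and 3.64 against 2.28 in spleen. In ES cells it was 4.26 against 4.46. The ES difference was 0.33 in Agap2 and 0.46 in Ehbp1l1, so these genes did not have the pattern. The part of the plateau in these differences was not tested.

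Aff3 differed between the tissues, with −0.66 in liver and 1.01 in spleen for mbd4-/- minus aid-/-, and −0.03 in ES cells. For liver minus spleen, Stx1a was 0.17 in the aid-/- pair and −0.33 in the mbd4-/- pair. Nfix was −0.087 in the aid-/- pair and 0.26 in the mbd4-/- pair.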

How the results depend on the processing

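Alternatives were other centring, one plateau for all arrays, normexp on median signals (6 files hold no mean signals), the deposited value table, a probe GC correction, no input filter, 250 bp joining, probe medians, 5 or more probes, each array left out, and fits on the tissues alone. The causes of the changes below were not tested. The median difference of tissues minus ES over the 8 leading islands, 2.87, became 1.77 with normexp and was between 2.54 and 3.00 without one array. All 8 kept every tissue array above every ES array, except that 3 of 3 could be formed in the deposited table and 4 of 4 with 5 or more probes.

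Islands called for liver minus spleen numbered 11 in the deposited table and 181 on the tissues alone at one plateau (added after seeing the data), and 0 otherwise, also with each array left out. Nfix reversed to −0.028 at one plateau, in both fits, and to −0.022 with probe medians, and Stx1a to 0.10 in the deposited table. Without one array Stx1a ran from −0.59 to 0.43, Nfix from −0.34 to 0.52, BC057022 from −0.47 to 0.27 and A930004D18Rik from −0.52 to 0.30, while Agap2 (−2.93 to −1.05), Aff3 (−2.52 to −1.51), Msl3l2 (0.53 to 1.96) and Ehbp1l1 (−1.32 to −0.13) kept their direction. Scan day as a block changed no call and no direction of the leading islands. Slide as a block leaves no residual degrees of freedom and was not run.

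For mbd4-/- minus aid-/-, 1 island was called in the deposited table and 1072 on the tissues alone. Without one array the count ran from 0 (any tissue array) to 1072 (either ES array, which leaves the tissue contrast alone). At one plateau the estimate of Agap2 was 0.31, and the others reversed to −0.54 in Stx1a, −0.34 in Nfix, −0.31 in Msl3l2, −0.19 in BC057022, −0.082 in Ehbp1l1, −0.69 in A930004D18Rik and −0.25 in Aff3. On the tissues alone at one plateau (added after seeing the data) they were −0.63 in Stx1a, −0.37 in Nfix, −0.39 in Msl3l2, −0.30 in Ehbp1l1, −0.54 in A930004D18Rik and −0.34 in Aff3. The deposited table gave −0.36 in Stx1a, −0.26 in Nfix and −0.15 in Aff3. Low-mode centring and probe medians gave −0.042 and −0.020 in A930004D18Rik, and −0.040 and −0.055 in Aff3. Without one array BC057022 ran from −0.092 to 0.73, A930004D18Rik from −0.25 to 0.78 and Aff3 from −0.35 to 0.49. A block for day or slide was not run, since no day or slide of the tissues holds both genotypes.

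Leading islands listed in aid-/- ES cells numbered 1 (Agap2, lower) without the input filter. In mbd4-/- ES cells they numbered 0 with normexp, the deposited table or 5 or more probes, and 2 with the GC correction, 250 bp joining or probe medians. In the Gadd45a knockdown they numbered 1 (Agap2, lower) at one plateau or with 250 bp joining. No pairing by animal or replicate was possible, because each group is 1 array and the labels give no replicate numbers to use as a block. The fit of mbd4-/- minus aid-/- compared the genotypes within each tissue, with tissue as a block. The fits on the tissues alone had genotype or tissue as a block. Weak bound signal limits the low values of the aid-/- ES array, where 70.6% of probes were well above background.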

Other observations

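Within 50 kb of the 8 leading islands lie 30 other islands with 3 or more probes, and 2 of them had every tissue array above every ES array, against 7.77% of all islands. Both are near Ehbp1l1 on chromosome 19 and are named here after their values were seen. The island of Map3k11, which encodes a mixed-lineage kinase (5695963 to 5696323, 4 probes), lies 19890 bp from the leading Ehbp1l1 island. It read 0.62, 0.64, 0.89 and −0.57 on the aid-/-, wild-type, mbd4-/- and Gadd45a knockdown ES arrays, and 1.97 and 4.35 in liver and 2.12 and 3.73 in spleen (aid-/- before mbd4-/-). The island of Sssca1 (5731362 to 5731828, 5 probes) had a gap of 0.02 and tissue values between −0.18 and 0.17. The other 28 neighbours did not have that order, among them the islands of Vps37d and Abhd11 near Stx1a and of Cdk4 and Cyp27b1 near Agap2.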
